A study of Mus musculus with 60 samples.

Results

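The clustered, replication-dependent histone genes were taken as all rows of the deposited count table whose transcript carries a GENCODE M21 symbol starting with Hist1h, Hist2h, Hist3h or Hist4h. This gave 65 of 27665 transcripts. GENCODE M21 annotates 70 such symbols, and the other 5 (Hist1h2aj, Hist1h2al, Hist1h2bq, Hist1h2br and Hist3h2bb-ps) were not analysed here. The members comprise 6 genes for the linker histone H1, 18 for H2A, 16 for H2B, 12 for H3 and 13 for H4. Cluster 1 on mouse chromosome 13 holds 52 of them, cluster 2 on chromosome 3 holds 10, cluster 3 on chromosome 11 holds Hist3h2a and Hist3h2ba, and cluster 4 on chromosome 6 is Hist4h4 alone.

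Core histones H2A, H2B, H3 and H4 form the nucleosome, and H1 binds the linker DNA next to it. Replication-dependent histone genes supply histones for newly made chromatin and are transcribed mainly in S phase, in a nuclear structure called the histone locus body that holds NPAT and the 3' end processing factors. Their transcripts mostly have no introns (62 of the 65 transcripts counted here have 1 exon, and those of Hist1h2bc, Hist1h2be and Hist1h2bp have 2) and, instead of a poly(A) tail, end in a conserved stem-loop bound by SLBP, so that little mature RNA is seen by poly(A) selection and nascent RNA is a direct way to see their transcription.

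Nascent RNA was measured by EU-seq, in which cells take up 0.5 mM 5-ethynyl uridine for 20 min and the labelled RNA is captured and sequenced, in 60 libraries of mouse embryonic stem cells (mESCs) and neuronal progenitor cells (NPCs) derived from them. In the RAD21-AID line the cohesin subunit RAD21 carries an auxin-inducible degron, and the auxin IAA (500 µM) removes the protein. Its mESCs were sampled untreated and 4 h after IAA, with 2 libraries a group in an initial and 12 a group in an additional experiment. Its NPCs, which form a single labelled batch, have 2 libraries a group: untreated, IAA for 1, 2 or 4 h, and A-485 (10 µM, 1 h), which blocks the histone acetyltransferases p300 and CBP. The CTCF-AID line was sampled as mESCs, untreated and 6 h after IAA, with 4 libraries a group, of which 2 were non-stranded and 2 stranded. CTCF YF-AA mESCs carry CTCF with a tyrosine and a phenylalanine replaced by alanine and a degron that answers to dTAG-13, and 2 libraries stand for each of 0, 2 and 4 h of it. In the last line a ΔN CTCF is removed by AGB1 (100 nM) and a CTCF ΔC by dTAG-13, and its 4 groups of 2 libraries are untreated cells and cells treated for 2 h with AGB1, dTAG-13 or both. The sources differ on the dTAG-13 dose of both lines, so none is given here. All lines express a degron-tagged protein also in the controls, and the sources do not state how many clones stand behind each line.

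Depth ran from 4027449 to 21898781 counts per library, of which the histone genes took 0.0429 to 0.182% (4262 to 34387 counts) in the whole-gene counts. The 1 h IAA and A-485 libraries had counts from no more than 90 kb at the start of a gene and were set against NPC controls counted in the same way; the counts of the members in these controls were the same in both versions. Of 151 pairs of libraries of a group none differed by sampling noise alone. A degron acts on protein, so the RNA of Rad21 and Ctcf is no test of depletion: their centred log2 changes lay between -0.06 and 0.13 in the 12 treatments. In NPC controls all 11 transcripts of the naive pluripotency list were lower and all 9 of the NPC list higher than in mESC controls, but all 5 mesenchyme markers were also higher (median log2 difference 11.3), so the labelled NPCs carry RNA typical of other cells as well. In bulk RNA fewer cells of a type and less RNA per cell cannot be told apart, and this holds for the share of cells in S phase too.

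The members share an end that the symbol did not choose. A perfect stem of 6 paired bases around a loop of 4, starting with GG and ending with CC, was found within 150 bases after the stop codon in 60 of 65 genes, not in Hist1h2an, Hist1h2bp, Hist1h3g, Hist1h4a and Hist2h2be. The search required the GG, the CC and a loop starting with TT, so these letters are shared by design. It allowed 5 paired bases, and how often other genes match was not counted. The DNA below is written 5' to 3' on the gene's strand (GRCm38.p6), with the stem and loop in capitals and 5 bases on each side, and shows a member for each role that recurs below: an abundant H1 and H4, the most abundant H2B, an H2A that is near 0 in NPCs, the H1 of the testis, and the gene of cluster 4.
Hist1h1b: ccaaaGGCTCTTTTCAGAGCCaccta
Hist1h4k: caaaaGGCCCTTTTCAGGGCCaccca
Hist2h2bb: caaaaGGCTCTTTTCAGAGCCacttt
Hist1h2aa: aaaaaGGCTCTTTTCAGAGCCacctt
Hist1h1t: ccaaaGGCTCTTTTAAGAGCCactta
Hist4h4: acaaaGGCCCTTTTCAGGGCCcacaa
The capitals lie at chr13:21779837-21779852 (minus strand, 31 bases after the stop codon) for Hist1h1b, chr13:21750150-21750165 (minus strand, 29 bases) for Hist1h4k, chr3:96270171-96270186 (plus strand, 39 bases) for Hist2h2bb, chr13:23934891-23934906 (plus strand, 40 bases) for Hist1h2aa, chr13:23696525-23696540 (plus strand, 30 bases) for Hist1h1t and chr6:136803998-136804013 (minus strand, 55 bases) for Hist4h4.

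The stem separated H4 from the other types. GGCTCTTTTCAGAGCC was the form of 38 genes (5 H1, 15 H2A, 10 H2B and 8 H3) and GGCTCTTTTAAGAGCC that of 9 others (1 H1, 1 H2A, 4 H2B and 3 H3). All 12 H4 genes with a stem-loop used other letters, 8 of them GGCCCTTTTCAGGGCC, 2 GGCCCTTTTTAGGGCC (Hist1h4i and Hist2h4) and 2 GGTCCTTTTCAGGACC (Hist1h4b and Hist1h4j), and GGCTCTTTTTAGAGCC occurred in Hist2h2ac alone. The types also differ in how many proteins they encode. The 13 H4 genes encode 1 protein of 103 residues from 12 distinct coding sequences, whereas the 6 H1 genes encode 6 proteins of 209 to 223 residues. As annotated, the 12 H3 genes encode 3 proteins, 1 of them the 181-residue frame of Hist2h3c1 alone. The 18 H2A genes encode 9 proteins and the 16 H2B genes 11, of 126 to 138 residues.

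Promoters are shown for a member of H1, H4 and H2B that ranked among the highest, and for Hist1h2aa, which was seen in mESCs and hardly in NPCs. Each RefSeq window (GRCm38.p6) runs from 250 bases before to 50 bases after the annotated start, 5' to 3' on the gene's strand, at chr13:21780576-21780875 (minus) for Hist1h1b, chr13:21750504-21750803 (minus) for Hist1h4k, chr3:96269450-96269749 (plus) for Hist2h2bb and chr13:23934187-23934486 (plus) for Hist1h2aa. Capitals mark matches on either strand to the TATA box, spelled TATAAA, to the CCAAT box of the same letters, to the octamer ATTTGCAT and to the H1 box, which is AAACACA.
Hist1h1b: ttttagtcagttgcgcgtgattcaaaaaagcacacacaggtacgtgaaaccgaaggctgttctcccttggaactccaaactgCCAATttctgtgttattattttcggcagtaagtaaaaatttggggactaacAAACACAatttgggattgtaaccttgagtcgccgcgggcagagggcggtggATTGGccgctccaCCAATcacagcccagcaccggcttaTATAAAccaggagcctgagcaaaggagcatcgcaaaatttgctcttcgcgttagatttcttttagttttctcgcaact
Hist1h4k: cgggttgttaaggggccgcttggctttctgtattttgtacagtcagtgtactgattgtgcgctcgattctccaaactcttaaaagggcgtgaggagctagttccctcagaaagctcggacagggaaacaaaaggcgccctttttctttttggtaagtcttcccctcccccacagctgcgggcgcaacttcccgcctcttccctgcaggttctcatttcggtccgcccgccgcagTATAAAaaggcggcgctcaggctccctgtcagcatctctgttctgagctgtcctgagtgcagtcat
Hist2h2bb: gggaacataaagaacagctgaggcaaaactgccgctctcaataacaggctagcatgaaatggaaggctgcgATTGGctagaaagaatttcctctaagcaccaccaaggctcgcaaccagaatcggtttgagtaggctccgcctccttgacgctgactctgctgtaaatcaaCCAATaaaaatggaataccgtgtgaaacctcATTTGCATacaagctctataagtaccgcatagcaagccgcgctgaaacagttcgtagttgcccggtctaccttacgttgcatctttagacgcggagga
Hist1h2aa: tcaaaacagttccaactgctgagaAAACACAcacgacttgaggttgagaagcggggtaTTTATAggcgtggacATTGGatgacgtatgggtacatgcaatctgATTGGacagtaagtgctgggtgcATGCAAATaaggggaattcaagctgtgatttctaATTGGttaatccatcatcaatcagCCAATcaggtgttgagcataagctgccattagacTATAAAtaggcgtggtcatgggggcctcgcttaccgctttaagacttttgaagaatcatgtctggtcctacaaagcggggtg

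CCAAT was present in 51 of the 60 histone promoters matched (85%), against 37.4% of all 32851 RefSeq promoter windows, and it split the types: all 6 H1, 18 H2A, 14 H2B and 10 H3 windows held it, and 3 of 12 H4 windows did. TATAAA was in 35 of 60 (58.3%, against 13.6% of all windows). The octamer ATTTGCAT was in 13 of 60 (21.7%, against 1.74%), namely 7 H2A and 6 H2B windows. The H1 box AAACACA was in 9 of 60 (15%, against 7.18%), including 5 of 6 H1 windows. Hist1h3f, Hist1h2bc, Hist1h3a, Hist2h2be and Hist2h4 had no entry in the promoter table. In 10 places an H2A and an H2B gene lie head to head with 175 to 305 bases between them, and the Hist1h2aa window above lies mostly in the gap of 305 bases that it shares with Hist1h2ba and ends inside Hist1h2aa. Windows of such partners can overlap, and both strands were searched, so a site can be counted in both. The octamer was in both windows of Hist1h2ah and Hist1h2bk, of Hist1h2ae and Hist1h2bg and of Hist1h2aa and Hist1h2ba. The motif counts above are therefore counts of windows, not of separate sites.

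Near-identical copies limit what a count of a single member means. Of the 65 members, 28 had fewer than 50% of their 50-base windows found at a single place in the genome. Reads of such genes can be dropped or moved between copies, and how the authors' mapping quality filter treated them is not given in the sources used here. Hist1h2ao, Hist1h2ap and Hist2h2aa1 had no count in any library, Hist1h4m had 1 and Hist2h2aa2 had 82 over all libraries together. Between 0 and 10.2% of the windows of these 5 genes were unique, they were tested in no comparison, and a count of 0 says nothing of their transcription. The other 60 members passed the filter (mean count above 20 in at least 1 group) in some comparison and 48 passed it in every one. Genes on overlapping annotations are uncertain too. Hist2h2bb lies within Gm42743 on the same strand (1010 and 1086 mean counts in mESC controls) and Hist3h2a within Trim17 (368 and 721). Hist1h2be, annotated over 37455 bases, overlaps Hist1h1e in part (188 and 691), over 1.32% of its own span and 25.7% of that of Hist1h1e.

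Levels were compared between genes as TMM-scaled CPM (counts relative to the scaled library total) per kb of the counted span. H1 and H4 genes were highest per gene: over 22 untreated mESC libraries the median member was at 40.6 CPM per kb for H1, 23.6 for H4, 10.6 for H3, 6.88 for H2A and 5.2 for H2B. The highest single gene was the H2B gene Hist2h2bb, at 157 ± 48.7 CPM per kb (SD, n = 22) and 267.4 and 205.8 in the NPC controls, with the reservation of Gm42743. The linker histone genes Hist1h1a (150 ± 49.2), Hist1h1b (123 ± 36.7) and Hist1h1c (59.7 ± 19.0) followed. The SD covers libraries of several lines, and all genes were measured in the same libraries. It therefore does not judge a difference between genes, and none was tested. The values per kb also depend on the annotated span. Hist1h1b (743 bases) and Hist1h1c (1560 bases) had 84563 and 88360 counts over all libraries. Hist1h1d, with 88052 counts over 7425 bases, was at 11.8 CPM per kb.

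Within H4, Hist1h4k (49.4 ± 13 CPM per kb), Hist1h4f (46.9 ± 14.3) and Hist1h4a (43.2 ± 14.3) led. The highest H2A genes were Hist1h2ak (22.6 ± 8.46), Hist1h2ai (11.8 ± 3.60) and Hist1h2ab (10.6 ± 3.10), the highest H2B genes after Hist2h2bb were Hist1h2bb (22.6 ± 8.27) and Hist1h2bg (17.3 ± 6.05), and the highest H3 genes were Hist1h3g (13.4 ± 6.01), Hist1h3e (12.9 ± 4.74) and Hist1h3c (11.9 ± 4.58). These are means over 22 untreated libraries of several lines, and no difference between genes was tested. The order turned between lines: in the non-stranded CTCF-AID controls Hist1h3c was above Hist1h3g. In cluster 3 Hist3h2a was at 9.08 CPM per kb, near the median of all members (9.47), and Hist3h2ba at 2.93, and Hist4h4 of cluster 4 was at 10.0. The plot of level against uniqueness shows genes with near-identical copies at low and high levels: their median was 8.47 CPM per kb against 10.0 for the others. Within types it was lower in H2A (5.09 against 8.13) and H4 (14.1 against 24.9). It was near in H3 (10.4 against 10.7) and higher in H2B (8.46 against 2.93). Under 1 CPM per kb lay 7 of 65 members, 5 with near-identical copies and 2 without. Whether reads of copies were lost was not tested.

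**Figure D1:**
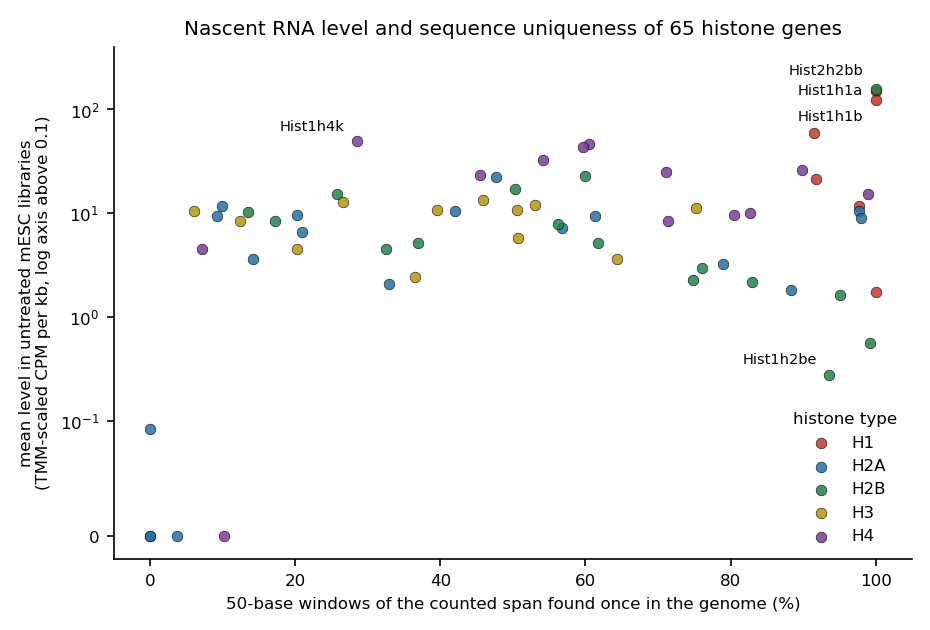
Each point is 1 of 65 histone genes, placed by the share of its 50-base windows found at a single place in the genome (x axis, percent) and by its mean level in 22 untreated mESC libraries (y axis, TMM-scaled CPM per kb, log scale above 0.1). Hist2h2bb, Hist1h1a and Hist1h1b stood highest, Hist1h4k was high although 28.5% of its windows were unique, and the genes at 0 had few or no unique windows.

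The summed level of all 65 members differed more between untreated mESC experiments than under any degron treatment, as the plot of summed levels by library shows. It was 454 and 554 CPM in the initial RAD21-AID controls and 860 to 1224 CPM in the 12 additional controls. Replicate 1 of both additional groups carries another batch label than the rest; its control was the highest, at 1224 CPM, and its IAA library was at 1109, while the other controls reached up to 1054. CTCF-AID controls were at 601 and 594 CPM (non-stranded) and 439 and 842 CPM (stranded), CTCF YF-AA controls at 1158 and 1177, and ΔN/ΔC CTCF controls at 1357 and 1309. The 2 NPC controls were highest, at 1867 and 1566 CPM. Levels are therefore compared within an experiment wherever the design allows it.

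**Figure D2:**
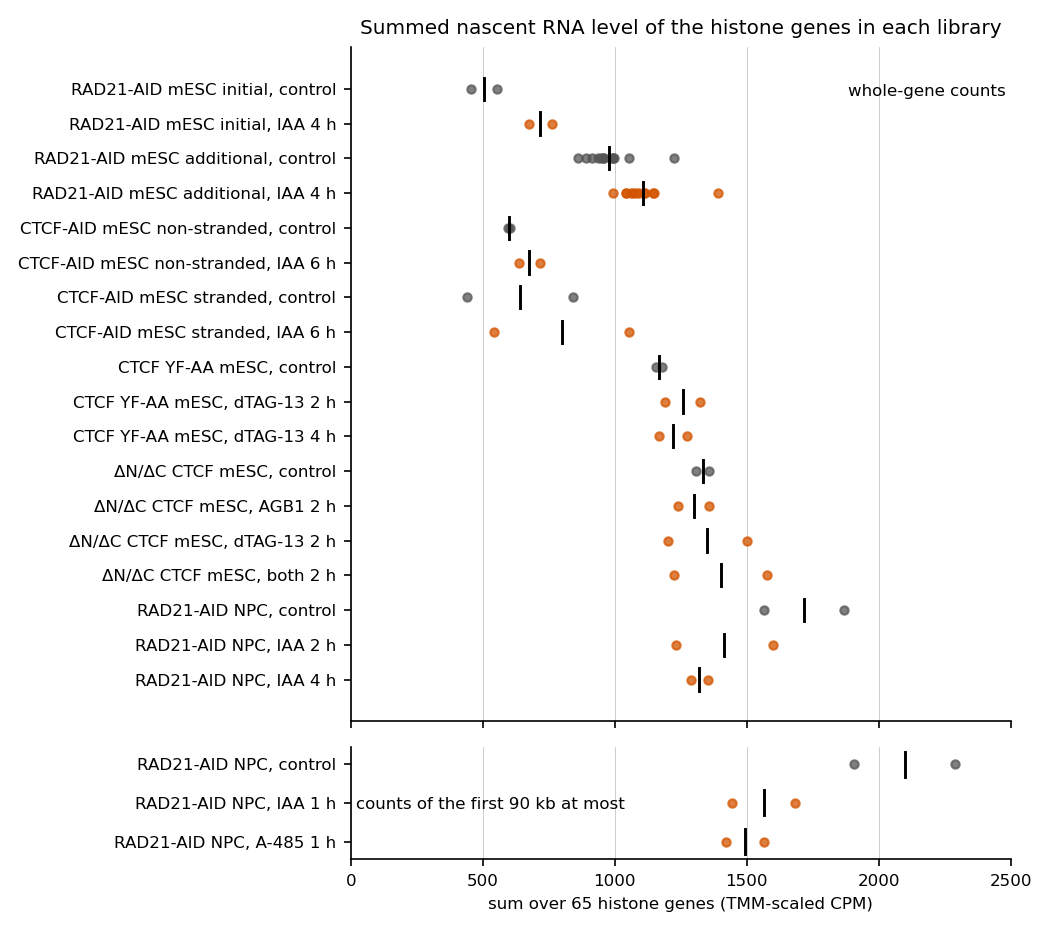
Each point is a library, placed by the summed nascent RNA level of the 65 histone genes (x axis, TMM-scaled CPM), grey for controls and orange for treatments, with a black bar at the group mean. The upper panel holds whole-gene counts, the lower panel the NPC libraries counted over at most the first 90 kb, which were normalized separately. RAD21 depletion libraries lay above their controls in the initial mESC experiment and below them in NPCs after 1 and 4 h, and after A-485.

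RAD21 depletion for 4 h in mESCs went with slightly higher nascent RNA of histone genes, led by linker histones. In the additional experiment 28 of 59 tested members rose and 0 fell, against 31% of all tested genes that rose and 27.4% that fell. A gene was said to rise or fall when edgeR's quasi-likelihood F test gave an adjusted p (Benjamini-Hochberg, over all genes tested) under 0.05. At an unadjusted p under 0.05, 29 members were higher and 0 lower, and DESeq2 called 26 rises and 0 falls. Within the batch that holds 11 libraries of each group 29 rose, as many as with batch as a factor. The median member was at a log2 fold change of 0.13 (range -0.14 to 0.52). The median was 0.03 over all genes and 0.09 over 398 other genes shorter than 2 kb, of which 25.6% rose and 7.29% fell. With the trend of fold change on gene length removed, 14 members rose, at a median of 0.04.

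All 6 H1 genes rose, with a median log2 fold change of 0.26. The spread of values across the 12 libraries of a group shows how small the shift was. Hist1h1b was at 111, 125 and 156 CPM per kb (lowest, median and highest of 12) in controls and at 135, 146 and 207 after IAA. Hist1h1c was at 56.1, 60.9 and 88.0 in controls and at 67.5, 73.8 and 104 after IAA. In both genes every IAA library lay above the control median, and the groups overlapped. Their log2 fold changes were 0.28 ± 0.04 (SE, adjusted p = 3.72e-07, edgeR) and 0.28 ± 0.05 (adjusted p = 4.06e-06).

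The largest rise belonged to Hist1h1t, the linker histone of spermatocytes, which was low in these cells. It was at 1.26, 1.6 and 2.58 CPM per kb in controls and at 1.2, 2.51 and 3.37 after IAA. The groups overlapped over most of their range, with a rise of 0.52 ± 0.14 on the log2 scale (SE, edgeR adjusted p = 0.00124). The H3 genes Hist2h3c2 and Hist1h3g came next. Hist2h3c2 went from 1.84, 2.40 and 3.07 to 1.88, 3.21 and 4.56 CPM per kb, a change of 0.35 ± 0.12 (edgeR adjusted p = 0.0113) that was not called with the length trend removed (adjusted p = 0.0641). Hist1h3g, a gene with near-identical copies, went from 8.20, 11.4 and 20.2 to 12.1, 14.5 and 18.8, a change of 0.34 ± 0.09 (edgeR adjusted p = 0.000897) with overlapping groups.

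By type, 5 of 13 H2A, 4 of 16 H2B, 6 of 12 H3 and 7 of 12 H4 genes rose, with median log2 fold changes of 0.09, 0.12, 0.17 and 0.14. By cluster, 21 of 48 genes of cluster 1, 6 of 8 of cluster 2 and Hist3h2a of cluster 3 rose, while Hist3h2ba (0.12 ± 0.13) and Hist4h4 of cluster 4 (0.02 ± 0.05) did not pass the test. Hist3h2a went from 8.89, 11.1 and 15.1 to 12.5, 13.7 and 17.0 CPM per kb, a change of 0.32 ± 0.05 (edgeR adjusted p = 2.22e-07). Of 37 members without near-identical copies 22 rose, and of 22 with them 6 did. The summed level went from 977 (860 to 1224) to 1107 (994 to 1391) CPM, a log2 ratio of 0.18, with overlapping groups.

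Genes that act around the histone loci moved in both directions in the same libraries. Of 24 transcripts of the list of histone transcription and 3' end processing factors 10 fell and 5 rose: Pou2f1, which encodes the octamer factor OCT1, fell by 0.45 on the log2 scale, Npat by 0.19 and Cdk2, whose kinase activates NPAT, by 0.24, while Lsm11, a subunit of the U7 particle, rose by 0.22. Of 34 genes of the S-phase and replication list 25 fell and 2 rose (median -0.11), among them E2f2 (-0.51), Ccne2 (-0.39) and Ccne1 (-0.32). Of 20 genes of the G2 and M phase list 17 rose and 0 fell (median 0.13), among them Cdc25c (0.22). The part of the cell cycle in the histone result was not tested.

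The initial experiment gave larger values with fewer libraries. There 17 of 51 tested members rose and 0 fell, against 3.4% of all tested genes that rose and 5.23% that fell, and all 51 members had a log2 fold change above 0, with a median of 0.52. Without adjustment 29 members were higher and 0 lower at p under 0.05, and DESeq2 called 6 rises and 0 falls. The median of 329 other short genes was 0.14, and 5.8% of them rose. Calls fell to 10 and to 6 without the first and the second IAA library, and to 9 with the length trend removed. The summed level went from 554 and 454 CPM in controls to 673 and 761 CPM after IAA, a log2 ratio of 0.51, without overlap.

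All 5 H1 genes tested and 6 of 12 H4 genes rose, along with 2 of 11 H2A, 3 of 13 H2B and 1 of 10 H3 genes. Hist1h1b was at 75.9 and 59.96 CPM per kb in controls and at 94.5 and 104 after IAA, and Hist4h4 went from 5.91 and 5.07 to 8.82 and 8.90. In both genes each IAA library lay above each control, with log2 fold changes of 0.56 ± 0.09 (SE, edgeR adjusted p = 6.18e-09) and 0.70 ± 0.13 (edgeR adjusted p = 7.66e-06). The largest rises were in low genes with wide errors. Hist1h2bj went from 1.11 and 2.25 to 5.39 and 3.81 CPM per kb (1.41 ± 0.44, edgeR adjusted p = 0.0217), the H2A gene Hist2h2ac from 5.13 and 4.01 to 10.8 and 7.33 (0.99 ± 0.29, edgeR adjusted p = 0.0127) and Hist1h2bn from 6.46 and 4.79 to 9.70 and 11.7 (0.95 ± 0.31, edgeR adjusted p = 0.0284). The groups did not overlap in these 3 genes, yet each call was lost with DESeq2, with the length trend removed and without at least 2 of the 4 libraries in turn.

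Both mESC experiments use separate libraries, and 13 members rose in both, which is 13 of 28 and 13 of 17. The share of all genes that rose in both was not counted, so this overlap does not show an excess of histone genes. They included Hist1h1a to Hist1h1e, Hist1h4h, Hist1h4k, Hist2h2bb and Hist3h2a. The difference between both responses, tested as an interaction, passed for 2 of 59 members, Hist1h4h (0.64 ± 0.17, edgeR adjusted p = 0.0127) and Hist4h4 (0.67 ± 0.16, edgeR adjusted p = 0.00336), both larger in the initial experiment, against 2.77% of all genes in each direction. Hist1h4h went from 16.6 and 14.6 to 23.6 and 30.7 CPM per kb there and from 31.2, 34.9 and 41.9 to 34.05, 39.0 and 47.9 in the additional experiment. Neither call was kept without the second initial control.

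In NPCs a larger share of histone genes than of all genes fell after 1 and 4 h of RAD21 depletion, and none rose. At 2 h their share was under that of all genes in the fit without a replicate block. The 1, 2 and 4 h comparisons and A-485 share the same 2 control libraries, so they are not independent of one another. After 1 h, 23 of 57 tested members fell and 0 rose, against 7.4% of all genes that fell and 8.34% that rose, with a median log2 fold change of -0.37. After 2 h, 4 of 57 fell and 0 rose (median -0.23), against 9.21% that fell and 5.35% that rose; 12 fell with the replicate block and 12 without a filter on low counts, and 8 with centring inside the model. After 4 h, 33 of 58 fell and 0 rose (median -0.39), against 21.1% that fell and 18.4% that rose. At an unadjusted p under 0.05, 33, 13 and 39 members were lower at 1, 2 and 4 h and 0 higher, and DESeq2 called 11, 2 and 13 falls and 0 rises. Other short genes had medians of 0.01, 0.11 and 0.08, with 2.8%, 2.34% and 7.16% of them falling.

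The first NPC control had the higher histone level of both, and fewer genes passed without it. Without it 13, 2 and 13 members fell at 1, 2 and 4 h, and Hist1h2ag rose at 4 h. At 2 h, 10 fell without the second control and 17 without the first IAA library, and at 4 h, 19 fell without the second IAA library. The summed level was 2291 and 1907 CPM in controls and 1444 and 1684 CPM after 1 h, counted over at most 90 kb, and 1867 and 1566 CPM in controls against 1232 to 1600 CPM after 2 h and 1288 to 1352 CPM after 4 h in the whole-gene counts. The groups overlapped at 2 h and not at 1 and 4 h, with log2 ratios of -0.28 at 2 h, -0.42 at 1 h and -0.37 at 4 h.

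Linker histones fell together at 1 h, 6 of 6 with a median log2 fold change of -0.52. Hist1h1c was at 154 and 127 CPM per kb in controls and at 80.9 and 99.5 after 1 h, and Hist1h1a at 281 and 226.6 and at 155 and 193. Both IAA libraries lay below both controls in both genes, with changes of -0.65 ± 0.08 (SE, edgeR adjusted p = 4.71e-06) and -0.56 ± 0.08 (edgeR adjusted p = 0.000103). Hist1h1t, which had risen in mESCs, was at 3.21 and 3.17 in controls and 1.16 and 1.82 after 1 h (-1.10 ± 0.30, edgeR adjusted p = 0.018), without overlap, and this call was lost with DESeq2 and without the first IAA library. Among core histones 7 of 11 H4, 4 of 12 H3, 4 of 15 H2B and 2 of 13 H2A genes fell. Hist1h2bc, an H2B gene, went from 7.23 and 7.49 to 3.88 and 4.17 CPM per kb (-0.89 ± 0.07, edgeR adjusted p = 8.49e-09), and Hist1h4i from 81.2 and 70.1 to 38.1 and 46.4 (-0.85 ± 0.09, edgeR adjusted p = 8.85e-07).

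The 4 genes that fell at 2 h were Hist1h1t, Hist1h2bc, Hist1h4i and Hist1h1c, and all of them had also fallen at 1 h against the same controls. In the whole-gene counts Hist1h4i was at 66.2 and 57.6 CPM per kb in controls, 41.9 and 32.2 after 2 h and 41.2 and 38.0 after 4 h. Its levels after IAA lay below both controls at each time, with changes of -0.73 ± 0.11 (SE, edgeR adjusted p = 0.00211) and -0.65 ± 0.07 (edgeR adjusted p = 4.25e-08). Hist1h2bc was at 5.89 and 6.15 in controls and 3.70 and 2.23 after 2 h (-0.998 ± 0.15, edgeR adjusted p = 0.00151), Hist1h1t at 2.62 and 2.61 and 1.17 and 1.19 (-1.16 ± 0.29, edgeR adjusted p = 0.0268), and Hist1h1c at 125 and 105 and 96.9 and 71.2 (-0.46 ± 0.12, edgeR adjusted p = 0.0406). None of these groups overlapped, and the call of Hist1h1t was lost with DESeq2 and without either control or the first IAA library.

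At 4 h, 10 of 12 H3 genes fell (median -0.47), with 5 of 6 H1 (-0.45), 8 of 12 H4 (-0.33), 7 of 15 H2B (-0.24) and 3 of 13 H2A (-0.09) genes. Hist2h3c1, an H3 gene of cluster 2, went from 11.3 and 9.06 to 5.98 and 4.77 CPM per kb, and Hist1h3h from 18.6 and 20.5 to 11.9 and 13.01. Both IAA libraries lay below both controls in both genes, with changes of -0.93 ± 0.12 (SE, edgeR adjusted p = 5.82e-07) and -0.67 ± 0.16 (edgeR adjusted p = 0.00136). Hist1h2bj went from 8.56 and 6.39 to 5.26 and 4.18 (-0.66 ± 0.24, edgeR adjusted p = 0.0389), a call lost with DESeq2, without the first control and without the second IAA library. Hist3h2a fell by 0.19 on the log2 scale, and Hist3h2ba (0.09 ± 0.14) and Hist4h4 (-0.20 ± 0.08) did not pass the test.

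The medians of the cell cycle and factor lists lay nearer to 0 at 4 h in NPCs. Of 34 S-phase and replication genes 6 fell and 6 rose (median -0.08), of 20 G2 and M phase genes 5 rose and 0 fell (0.08), and of 24 transcription and processing factors 1 fell, Casp8ap2 (-0.16), and 4 rose (0.02), with Npat at 0.05 ± 0.05 and Slbp at 0.02 ± 0.05. Among 11 transcripts of replication-independent histone variants 4 fell and 1 rose, and H3f3b, which encodes H3.3, fell by 0.43. Of 15 chaperone genes 6 fell and 3 rose, with Npm1 falling by 0.42.

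The difference between NPCs and mESCs in the 4 h response was tested as an interaction over the 24 additional mESC libraries and the 4 NPC libraries. The response was lower in NPCs for 36 of 60 tested members and higher for 0, against 18.3% of all genes lower and 15.1% higher, and the median difference was -0.53 on the log2 scale. Without adjustment 41 were lower and 0 higher at p under 0.05, and DESeq2 called 34 lower and 0 higher. Among 507 other short genes 28 were lower and 21 higher, with a median of 0.01. All 6 H1 genes differed (median -0.70), along with 8 of 12 H3 (-0.69), 9 of 12 H4 (-0.49), 8 of 16 H2B and 5 of 14 H2A genes. Among genes that passed, the largest differences were those of Hist2h3c1 (-1.18 ± 0.15, edgeR adjusted p = 6.75e-09), Hist1h1t (-0.89 ± 0.32, edgeR adjusted p = 0.0318) and Hist1h4i (-0.86 ± 0.12, edgeR adjusted p = 9.78e-08). The difference passed for 18 members without the first NPC control and for 23 without the second 4 h library, and that of Hist1h1t was lost without either NPC control or the first 4 h library. As the plot of both responses shows, 20 members rose in mESCs and fell in NPCs, which is 20 of the 28 that rose and 20 of the 33 that fell, Hist1h1a to Hist1h1e among them. The share of all genes called in these opposite directions was not counted, so this overlap does not show an excess of histone genes. The mESC and NPC libraries carry different batch labels, so cell type and batch cannot be told apart in the levels. Each response was measured within an experiment, but the experiments differ in both. Cell type and batch therefore cannot be told apart in the difference of the responses either.

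**Figure D3:**
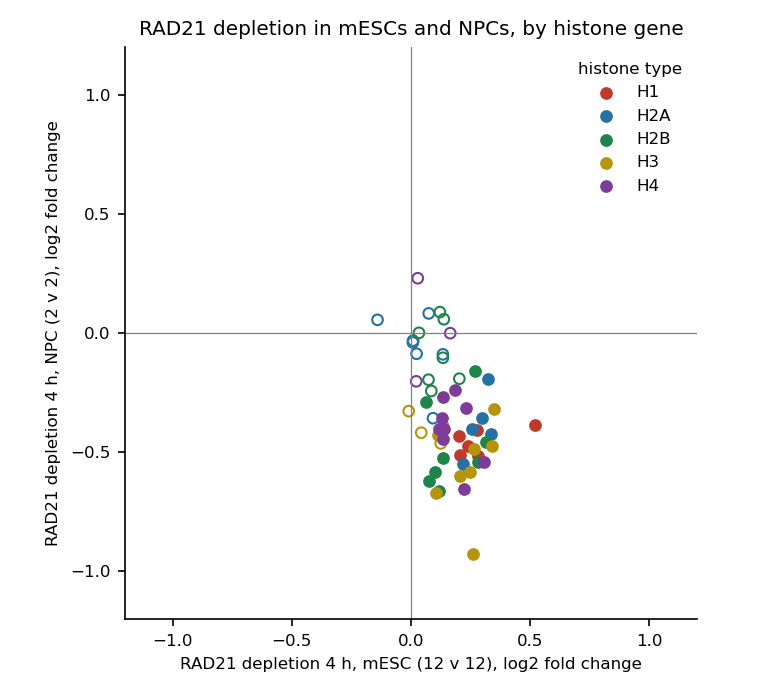
Each point is a histone gene tested in both cell types, placed by its centred log2 fold change after 4 h of RAD21 depletion in mESCs (x axis, 12 against 12 libraries) and in NPCs (y axis, 2 against 2), coloured by histone type and filled where the difference of both responses passed the test. Most points lie to the right of 0 on the x axis and below 0 on the y axis, and all H1 genes are filled.

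After A-485 for 1 h in NPCs, histone genes were lower, with the lowest median among linker histones. Of 57 tested members 32 fell and 0 rose, against 35.3% of all genes that fell and 32.4% that rose, and the median member was at -0.55, where 443 other short genes were at -0.00 with 17.8% falling and 19.2% rising. Without adjustment 34 were lower and 0 higher at p under 0.05, and DESeq2 called 25 falls and 0 rises. TMM left the median of all expressed genes at 0.12 on the log2 scale, and library totals left it at 0.31; the values here are relative to that median, and with library totals 19 members fell. Without the first control 19 fell. The share of all genes that fell is not given for either alternative, so these counts do not show an excess of histone genes. The summed level went from 2291 and 1907 CPM to 1566 and 1420 CPM, without overlap, a log2 ratio of -0.49.

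The counts of called genes by type were as follows, with no test between types. All 11 tested H4 genes fell (median -0.62), with 5 of 6 H1 (-0.82), 8 of 12 H3 (-0.63), 6 of 15 H2B (-0.44) and 2 of 13 H2A (-0.40) genes. Hist1h1d and Hist1h1c were the 2 members that fell by at least 2-fold, as did 20.2% of all genes. Hist1h1d was at 37.0 and 30.7 CPM per kb in controls and 20.4 and 16.6 after A-485, and Hist1h1c at 154 and 127 and at 82.2 and 72.4. Both groups were apart in both genes, with changes of -1.02 ± 0.10 (SE, edgeR adjusted p = 6.09e-07) and -1.01 ± 0.09 (edgeR adjusted p = 2.11e-07). Hist1h1t, the sixth H1 gene, was at -0.04 ± 0.24 and did not pass the test.

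Hist1h4f, one of the highest H4 genes, went from 100 and 92.1 to 56.5 and 55.5 CPM per kb (-0.92 ± 0.09, edgeR adjusted p = 1.37e-06). Hist1h2bp, a low H2B gene, went from 4.48 and 3.81 to 2.87 and 1.89 (-0.95 ± 0.22, edgeR adjusted p = 0.00321), and Hist4h4 of cluster 4 from 25.4 and 20.3 to 17.7 and 15.97 (-0.58 ± 0.10, edgeR adjusted p = 0.000532). Controls lay above treated libraries in all 3. In cluster 3 Hist3h2ba fell by 0.50 on the log2 scale from 15.5 and 14.4 to 12.3 and 11.2 CPM per kb (edgeR adjusted p = 0.048), and Hist3h2a was at -0.12 ± 0.08. As a sum, H2A changed by a log2 ratio of -0.10, or 0.09 on library totals, so its direction depends on the scaling, while the H1 sum was at -0.71.

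In the same A-485 libraries 28 of 34 S-phase and replication genes rose and 2 fell (median 0.23), with Gins4, a subunit of the replicative helicase complex, at 0.71 and E2f2 at -0.90. Of 24 histone transcription and processing factors 13 rose and 2 fell: Slbp rose by 0.44 and Npat by 0.24, and Cdkn1a, the CDK inhibitor p21, fell by 2.41 on the log2 scale. Among histone variants 5 of 11 fell and 2 rose, with H2afj falling by 0.92. All 9 transcripts of the NPC marker list fell. The part of these movements in the histone result was not tested.

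CTCF depletion for 6 h called no histone gene in the unblocked fit: 0 of 56 tested members rose and 0 fell, against 1.57% of all genes that rose and 2.01% that fell, and the median member was at 0.29. At an unadjusted p under 0.05, 1 was higher and 0 lower, and DESeq2 called 0. Same-numbered libraries deviated together, so the replicate number was also fitted as a block. With the replicate number as a block 9 of 56 members rose, a share near the 13.9% of all genes that rose. In that fit 0 members fell, where 15.3% of all genes did. By replicate number, the summed level was 601 and 594 CPM in non-stranded controls and 637 and 715 after IAA. In stranded libraries it was 439 and 842 CPM in controls and 543 and 1055 after IAA. Each IAA library lay above the control of the same number and library type, and the groups overlapped as a whole.

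The 9 genes of the blocked fit, whose share was near that of all genes, were Hist1h1a to Hist1h1e, Hist1h4f, Hist1h4b, Hist1h2bb and Hist1h2aa. Hist1h1b was at 84.3 and 88.0 CPM per kb in non-stranded controls and 103 and 104 after IAA, and at 55.0 and 112 in stranded controls and 70.4 and 150 after IAA. Each pair rose, by 0.36 ± 0.05 on the log2 scale in the blocked fit (SE, edgeR adjusted p = 0.00053). Hist1h2aa went from 4.89, 3.06, 2.90 and 2.90 to 5.38, 6.99, 5.70 and 6.23 CPM per kb in the order of the pairs. All 4 IAA libraries lay above all 4 controls, with a blocked change of 0.85 ± 0.25 (edgeR adjusted p = 0.028).

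The remaining CTCF lines gave few or no calls. The YF-AA comparisons share their 2 controls, and those of the ΔN/ΔC line share theirs. After dTAG-13 in CTCF YF-AA cells 0 of 51 members changed at 2 h (median 0.11; 1.24% of all genes rose and 2.7% fell) and 0 of 53 at 4 h (median 0.06; 1.6% and 3.4%). At an unadjusted p under 0.05, 6 were higher and 0 lower at 2 h and 5 higher and 1 lower at 4 h, and DESeq2 called 0 at both times. Without the first 2 h library 2 members rose at 2 h. The largest value at 4 h was that of Hist1h1t, at 1.62 and 2.25 CPM per kb in controls and 4.15 and 3.83 at 4 h (0.96 ± 0.43, edgeR adjusted p = 0.257), which did not pass. Removing CTCF ΔC with dTAG-13 changed 0 of 54 members (median -0.02; 0.0734% of all genes rose and 0.00734% fell), with 1 higher and 0 lower at an unadjusted p under 0.05 and 0 by DESeq2.

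Removing ΔN CTCF with AGB1 for 2 h lowered 2 of 56 members and raised 0, against 1.49% of all genes that fell and 0.653% that rose. Hist1h4h was at 47.6 and 52.0 CPM per kb in controls and 31.7 and 31.9 after AGB1, and Hist2h2bb at 242 and 229 and at 196 and 176. The groups were apart in both genes, with changes of -0.64 ± 0.13 (SE, edgeR adjusted p = 0.00182) and -0.34 ± 0.07 (edgeR adjusted p = 0.00281), and DESeq2 called neither. Without the second AGB1 library Hist1h4h alone fell. With both truncated proteins removed 4 of 55 members rose and 0 fell, against 2.04% that rose and 4.55% that fell: Hist1h3d (0.48 ± 0.12, edgeR adjusted p = 0.00604), Hist1h2bc (0.49 ± 0.14, edgeR adjusted p = 0.0225), Hist2h3c1 (0.69 ± 0.16, edgeR adjusted p = 0.00263) and Hist1h2bn (0.73 ± 0.21, edgeR adjusted p = 0.0233). The treated libraries of this arm differed in summed level, 1576 against 1226 CPM, with controls at 1357 and 1309. Without the first of them 4 other members fell (Hist1h4a, Hist1h4b, Hist1h4h and Hist2h2bb) and none rose, without the second 9 rose, and DESeq2 called 0. The direction of the calls in this arm thus depended on 1 library. Without either control in turn 2 rose.

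The plot of responses by comparison sets these results side by side: most members lie to the right of 0 after RAD21 depletion in mESCs, to the left in NPCs and after A-485 and, without calls in the unblocked fit, to the right after CTCF depletion, and they spread to both sides of 0 in the CTCF lines with truncated or mutated protein.

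**Figure D4:**
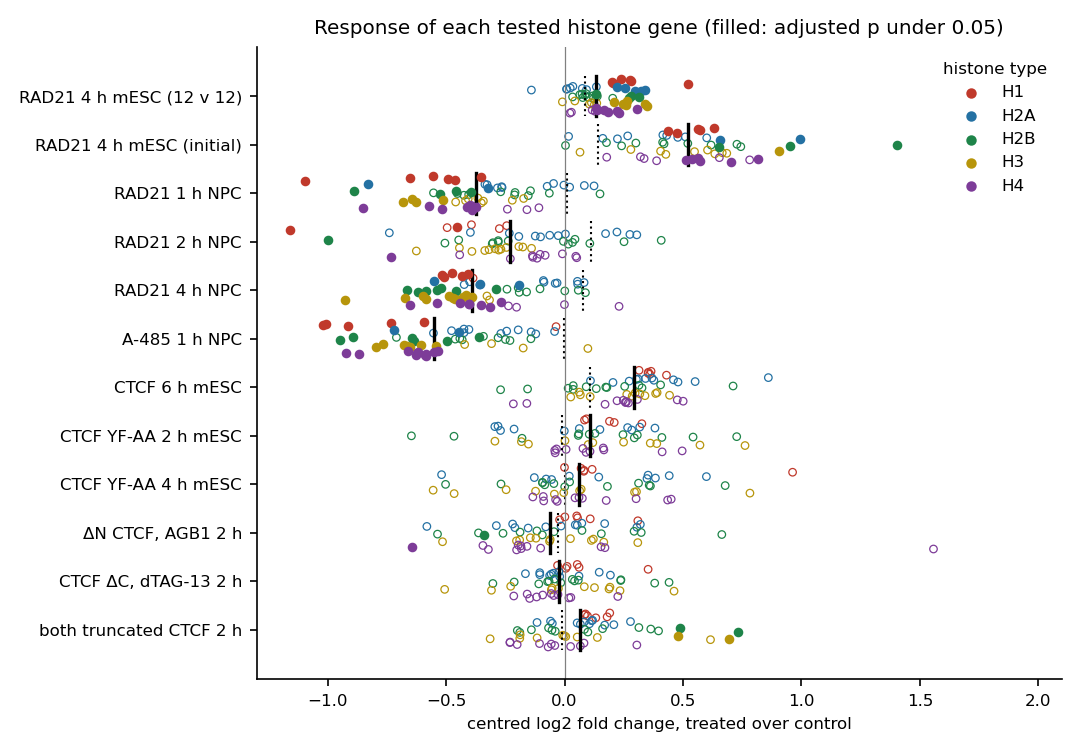
Each point is a tested histone gene in 1 of 12 comparisons of treated with control libraries (rows), placed by its centred log2 fold change (x axis), coloured by histone type and filled where the adjusted p of edgeR was under 0.05. The solid line is the median of the members and the dotted line that of other genes shorter than 2 kb. The medians of the members were 0.13 and 0.52 in the mESC RAD21 rows, -0.37, -0.23 and -0.39 in the NPC RAD21 rows and -0.55 after A-485.

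Untreated NPCs had more nascent histone RNA than untreated mESCs, with a small set of genes going the other way. Against the 12 additional mESC controls 53 of 60 tested members were higher in the 2 NPC controls and 3 lower, against 45.2% of all genes higher and 44.4% lower, and 24 were higher by at least 2-fold, as were 26.8% of all genes. The median difference was 0.86 on the log2 scale and that of 491 other short genes 0.17. Hist1h4h, Hist1h2bm, Hist1h2bf and Hist1h2ah did not pass the test. Against the 2 initial mESC controls 57 were higher and 2 lower. Batch and cell type cannot be told apart here. The mESC controls also differ among themselves: 54 of 59 members were lower and 1 higher in the initial than in the additional controls, against 35.7% and 35.1% of all genes, with a median of -0.77, a difference of nearly the same size as that between the cell types. Among other short genes 55.3% were lower there (median -0.40), and with the length trend removed 20 members were lower and 2 higher.

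All 12 H3 genes were higher in NPCs (median 1.04), as were all 6 H1 genes (0.80), 13 of 16 H2B, 12 of 14 H2A and 10 of 12 H4 genes (0.70). All 8 tested genes of cluster 2 were higher (median 1.45), and both genes of cluster 3. Hist3h2a was at 8.89, 11.1 and 15.1 CPM per kb (lowest, median, highest) in mESCs and at 39.9 and 34.2 in NPCs, Hist1h2bc at 1.49, 1.68 and 1.90 and at 5.89 and 6.15, and the H3 gene Hist2h3b at 3.14, 4.35 and 5.49 and at 15.2 and 12.9. The NPC libraries lay far above the mESC range in all 3. The differences were 1.79 ± 0.07 (SE, edgeR adjusted p = 1.51e-28), 1.89 ± 0.06 (edgeR adjusted p = 9.03e-32) and 1.77 ± 0.15 (edgeR adjusted p = 1.37e-14). Trim17, in which Hist3h2a lies, had 721 mean counts in mESC and 2241 in NPC controls, and Hist3h2a had 368 and 1546. The counts of Trim17 may hold the reads of Hist3h2a, so they may not be a separate signal. These counts are not scaled for depth.

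By type, the composition of the histone signal was similar in both cell types. H1 made up 46.5% of the summed CPM in mESC controls and 46.2% in NPC controls, H4 22.3% and 19.9%, H2B 15.6% and 15.8%, H2A 7.88% and 9.46%, and H3 7.78% and 8.64%. Cluster 3 rose from 2.73% to 5.08% of the sum, and cluster 2 went from 11.7% to 10.3%.

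The 3 genes that were lower in NPCs were Hist1h2ba, Hist1h2aa and Hist1h4n. Hist1h2ba and Hist1h2aa encode the H2B and H2A known from testis and egg (TH2B and TH2A) and form the head-to-head pair whose shared window is printed above. Hist1h2ba was at 2.55, 5.26 and 6.32 CPM per kb in the 12 mESC controls, and 353 counts there stood against 0 in both NPC controls, which makes it at least 12.3-fold lower with a floor of 3 counts over both libraries. Hist1h2aa was at 8.85, 10.4 and 11.7 in mESCs and at 0.278 and 0 in NPCs, that is 755 counts against 2, a ratio of 79.4 (95% interval 21.9 to 657, counting error only). The 2 and 4 h IAA libraries of NPCs held no count of either gene, while a 1 h IAA library (0.0754 CPM) held Hist1h2aa and an A-485 library (0.0646 CPM) held Hist1h2ba. Their levels also differed between mESC lines: Hist1h2aa was at 25.96 and 26.5 CPM per kb in ΔN/ΔC CTCF controls, 15.1 and 11.5 in YF-AA controls and 4.01 to 7.36 in initial RAD21-AID controls. No difference between lines was tested for it.

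Hist1h4n was at 1.68, 5.04 and 6.52 CPM per kb in mESCs and at 2.78 and 1.69 in NPCs, a difference of -1.07 ± 0.26 (SE, edgeR adjusted p = 7.47e-05) with overlapping groups. It was also the only member that was higher in the initial mESC controls, at 8.58 and 8.08 (0.91 ± 0.22, edgeR adjusted p = 0.0015). Hist1h1t, the other testis histone, was a little higher in NPCs (0.62 ± 0.21, edgeR adjusted p = 0.0184).

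**Figure D5:**
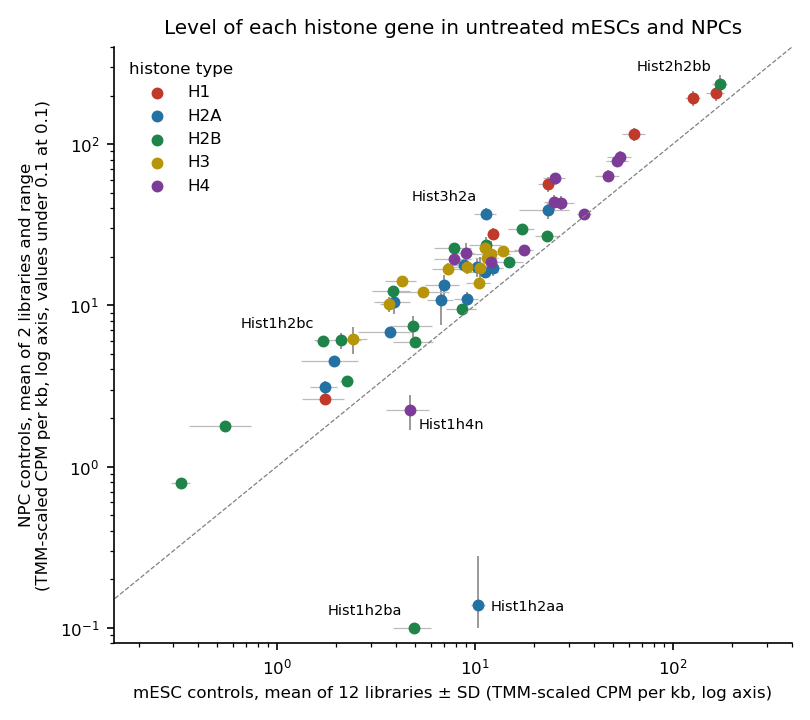
Each point is a histone gene, placed by its mean level with SD in 12 untreated mESC libraries (x axis) and by its mean with the range of 2 untreated NPC libraries (y axis), both in TMM-scaled CPM per kb on log axes, with values under 0.1 drawn at 0.1. Most genes lie above the dashed line of equal levels, Hist3h2a, Hist1h2bc and Hist2h3b among the farthest, and Hist1h2ba and Hist1h2aa lie at the bottom.

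Other genes of the histone pathway were mostly lower in NPCs. Of 34 S-phase and replication genes 30 were lower and 3 higher (median -0.73), with Mcm5, a subunit of the replicative helicase, at -1.97, and 19 of 20 G2 and M phase genes were lower. Of 24 transcription and processing factors 19 were lower and 3 higher, and 14 of 15 chaperone genes were lower. Among replication-independent variants 8 of 11 transcripts were higher and 3 lower: H1f0, the linker histone of resting and differentiated cells, was at 3.90 and H2afz, which encodes H2A.Z, at -0.97 on the log2 scale. The part of cell cycle distribution in the histone levels was not tested.

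Between stranded and non-stranded CTCF-AID libraries 1 of 56 members was lower and 1 higher, against 14% of all genes lower and 5.45% higher (DESeq2 called 8), and the median member was at 0.16, where other short genes had a median of -0.31 with 30.3% lower. Hist2h3c1 was at 3.87, 3.39, 3.07 and 4.24 CPM per kb in non-stranded and 1.86, 1.86, 2.44 and 1.73 in stranded libraries, and Hist1h3f at 2.41, 3.13, 3.08 and 3.13 and at 4.32, 10.1, 4.31 and 13.3. The groups were apart in both genes, with differences of -1.002 ± 0.20 (SE, edgeR adjusted p = 0.0106) and 1.35 ± 0.37 (edgeR adjusted p = 0.0349). Neither passed among control or IAA libraries alone, and the calls varied from 0 to 8 members with 1 library left out: 0 without the second non-stranded IAA library, 1 without the first and without either non-stranded control, 8 without the first stranded control and 7 without the first stranded IAA library.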

How the data were processed

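Gene counts were deposited for 60 EU-seq libraries. Per the study's methods, reads were aligned to mm10 and the authors counted them with HTSeq over the gene body of a representative transcript per gene, with the span limited from the gene start for short treatments. The deposited 1 h columns, and a second version of the NPC controls, are named as limited to 90 kb. The methods give a longer limit for 2 h, which the names of the 2 h columns do not carry; columns without a limit in their names are called whole-gene here. The submitters' notes name BWA, HTSeq, SAMtools 1.4, bedtools, cutadapt and deepTools; how strand entered the counting is not given in the sources used here. Counts over a gene body hold every read that aligns there, and reads of near-identical copies may be dropped or split.

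Transcript identifiers were matched to GENCODE M21 (27296 with version, 159 without, 210 unmatched). The members and gene lists were chosen with earlier results of these data known. The edgeR 4.0.16 quasi-likelihood F test with TMM scaling (R 4.3.3, limma 3.58.1) was fitted over all transcripts with a mean count above 20 in a group. Log2 fold changes were centred on the median of expressed genes (above 15 TPM, computed here), p-values belong to the change before centring, and a call needed an adjusted p under 0.05 with both values of the same sign. The SE is the change before centring divided by the square root of F. Each comparison was fitted on its own groups. Whole-gene and 90 kb tables were normalized separately. DESeq2 1.42.0, other scalings, filters and left-out libraries were alternatives. Both tests of differences between responses, the crossed pairing and the A-485 scaling on library totals were added after the data were seen. The scripts (Python 3.11.15, pandas 2.3.3, matplotlib 3.10.9) were tested on simulated data.

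Groups came from the sample labels. The study calls the replicates of its RAD21 and CTCF experiments biological; what separates them (cultures or days) was not found in the sources used here, so p-values measure the spread between these libraries. Same-numbered CTCF-AID libraries deviated together (r of 0.47 and 0.804, a value for each library type), so their replicate number was also fitted as a block. With 2 libraries per treatment and library type, both pairs of a library type have the same r by construction. The pairing comes from this check alone. The precision of a level is limited by its counts, and intervals cover counting error only.

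Genes named in the text were the 3 highest of each histone type in untreated mESCs, clusters 3 and 4, the 3 largest rises and falls per comparison, testis-associated members and members with no count, members that share a coding sequence as a group, and up to 3 genes per direction of the other lists. A few others were added after their values were seen: Hist1h1a to Hist1h1e, Hist1h4h and the H2A/H2B pairs in the comparisons where the rule does not name them, and Npat and Slbp. Sequences are RefSeq's (GRCm38.p6).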

Additional observations from a re-analysis of the deposited data

Results flagged for a closer look

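The response to 4 h of RAD21 depletion differed between NPCs and mESCs for 36 of 60 histone genes by the interaction test, with a lower value in NPCs in all 36. Of all genes 18.3% were lower and 15.1% higher in that test. The groups there are 24 mESC and 4 NPC libraries with different batch labels, and 18 genes passed without the first NPC control. The same response differed between the initial and the additional mESC experiment for 2 of 59 genes, Hist1h4h and Hist4h4. Both were higher in the initial one, a share near the 2.77% of all genes that were higher there. Without the second initial control 0 differed. Both differences were tested directly, and their cause was not tested.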

How the results depend on the processing

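Counts are numbers of histone genes called. Except for the CTCF replicate block, the share of all genes called is not given for these alternatives. The counts alone therefore do not show whether histone genes exceeded that share. With DESeq2 in place of edgeR 6 were called in the initial RAD21 experiment, 11, 2 and 13 at 1, 2 and 4 h in NPCs, 0 for ΔN CTCF, 0 for both truncated proteins and 8 between library types. With the length trend removed the counts were 14 in the additional and 9 in the initial RAD21 experiment, 7 at 2 h in NPCs, 4 between library types, 22 between mESC experiments and 1 for the difference between their responses. Without a filter on low counts 12 were called at 2 h in NPCs and 4 between library types, and with centring inside the model 8 at 2 h. Members without a near-identical copy gave 4 at 2 h, 2 for ΔN CTCF, 2 between library types and 2 for the difference between mESC experiments. Control or IAA libraries alone gave 0 and 0 between library types. Library totals gave 19 after A-485.

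The replicate block gave 9 for CTCF, 12 at 2 h in NPCs and 1 (Hist1h4i) for YF-AA at 4 h, and changed no other count of members by over 1.5 times; it was not run between cell types or mESC experiments. Outside CTCF the same-numbered libraries were not taken as pairs in the main fits. Their r was 0.199 at 2 h in NPCs, 0.107 after A-485 and -0.0167 to 0.343 in the additional RAD21 experiment. Where same-numbered libraries deviated in opposite directions (r = -0.136), the crossed pairing called 17 members in the initial RAD21 experiment, as did the plain and the blocked fit, and 30 at 1 h in NPCs, against 23 and 22.

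On library totals the summed log2 ratios after A-485 were -0.30 for all members, 0.0868 for H2A, -0.0491 for H2B, -0.17 for H3, -0.31 for H4, -0.38 for cluster 1 and 0.0265 for cluster 2. Without near-identical copies the H2A sum was at -0.0309 for YF-AA at 4 h and at 1.31 between NPCs and mESCs.

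With 1 library left out at a time the counts ran from 24 to 29 in the additional and 6 to 18 in the initial RAD21 experiment, 13 to 30, 2 to 17 and 14 to 41 at 1, 2 and 4 h in NPCs, 19 to 31 after A-485, 0 to 0 for CTCF, 0 to 2 and 0 to 1 for YF-AA at 2 and 4 h, 1 to 3 for ΔN CTCF, 0 to 1 for CTCF ΔC, 2 to 9 for both, 47 to 56 between cell types, 0 to 8 between library types, 41 to 56 between mESC experiments, 18 to 39 for the NPC and mESC difference and 0 to 6 for that of both mESC experiments. Without the first library of both truncated proteins the direction turned, with 4 falls. The cause was not tested in any of these. Groups of 2 libraries, low counts of many H2A and H2B genes and near-identical copies limit what single genes can show.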
